A study of Homo sapiens with 13 samples.

Results

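Amino acid transporters are the membrane proteins through which leukemia cells take up and exchange amino acids. The set described here holds the genes of 6 families of plasma membrane and lysosomal carriers, SLC1A, SLC3A, SLC7A, SLC36A, SLC38A and SLC43A, without SLC7A11 and without pseudogenes. Members were taken from the annotation of the array, as genes with a probe set annotated to them alone, and each gene was represented by its probe set with the highest mean. This gave 37 members among 18568 genes, covered by 83 probe sets. SLC7A6OS, SLC7A11-AS1 and SLC38A4-AS1 begin with the same letters but code for no carrier and were left out, and SLC36A2, SLC36A3 and SLC38A8 were not analysed here.

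Expression was measured on HG-U133 Plus 2.0 arrays in 13 human acute lymphoblastic leukemia (ALL) cell lines, with 1 array per line. B-cell precursor leukemia (BCP-ALL) was represented by 6 lines (Nalm16, Nalm30, Nalm6, 697, RS4,11 and REH) and T-cell leukemia (T-ALL) by 7 (Jurkat, Molt4, CCRF-CEM, HPB-ALL, ALL-SIL, TALL-1 and P12-ICHIKAWA). All lines were untreated and grew in RPMI medium with fetal bovine serum, and each is an established line sampled as 1 culture, so that every p-value measures the spread between lines. Values are on a log2 scale whose lowest possible value is 4, and a value within 1 unit of it is called near the floor. A gene was called expressed when 3 or more lines read above the array median. This limit is relative and does not by itself show that a transcript is present. Of the fibroblast markers, COL1A1 passed it, at 6.22 to 7.29 over the 13 lines, while COL1A2 and DCN read 4.31 to 5.58.

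Array medians ran from 5.05 to 5.37. The mean of 5 measured B lineage markers was 9.51 to 10.43 in BCP-ALL and 4.41 to 5.66 in T-ALL, and that of 6 T lineage markers was 8.78 to 10.45 in T-ALL and 4.61 to 5.24 in BCP-ALL, so the lines carried the markers of their labels. The arrays of P12-ICHIKAWA and TALL-1 were nearly alike (r = 0.99 over all probe sets), and the next most alike pair was Nalm16 and Nalm30 (r = 0.96). Results that turn on either pair are given with the pair as 1 line or left out.

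Carriers of the SLC7A family that work as light chains reach the membrane only when joined to a heavy chain, SLC3A2 or SLC3A1. The pair of SLC3A2 and SLC7A5 (also called LAT1) exchanges large neutral amino acids such as leucine for glutamine, which SLC1A5 and members of SLC38A bring in with sodium. Several of these genes are known targets of ATF4, the transcription factor of the amino acid response, and others of MYC, which binds the E-box. Inside the cell, SLC38A9 sits on the lysosome and reports arginine to the kinase complex mTORC1.

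Of the 37 members 25 were expressed, or 67.6%, which was also the share of expressed genes among all genes (67.6%). By family these were 4 of 7 SLC1A, 2 of 2 SLC3A, 6 of 12 SLC7A, 2 of 2 SLC36A, 8 of 11 SLC38A and 3 of 3 SLC43A genes. The 12 members below the limit were SLC1A1, SLC1A2, SLC1A6, SLC7A2, SLC7A4, SLC7A9, SLC7A10, SLC7A13, SLC7A14, SLC38A3, SLC38A4 and SLC38A11, and 9 of them stayed near the floor in every line. Many of these are carriers of kidney, liver or brain. For SLC7A2, a cationic amino acid carrier, a second probe set with a lower mean read 8.04 in 697 and near the floor in every other line, which the chosen probe set did not show.

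Among the expressed members 13 lay above the array median in every line. The spread over lines was similar to that of other genes, with a median SD of 0.57 against 0.52 for all expressed genes and a median range of 2.14 against 1.78. A range of more than 3 log2 units was seen in 7 members, and a range under 1 in 3, SLC1A7, SLC3A1 and SLC38A12. CCRF-CEM held the highest value of 8 of the 25 members, SLC3A1, SLC3A2, SLC7A1, SLC7A3, SLC7A5, SLC1A5, SLC38A1 and SLC43A1, whereas it held the highest value of 6.49% of all expressed genes. The lowest value lay in 697 for 5 members (9.75% of all expressed genes), and for 4 members each in Nalm16 (27.7%), ALL-SIL (7.7%) and P12-ICHIKAWA (4.86%).

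**Figure D1:**
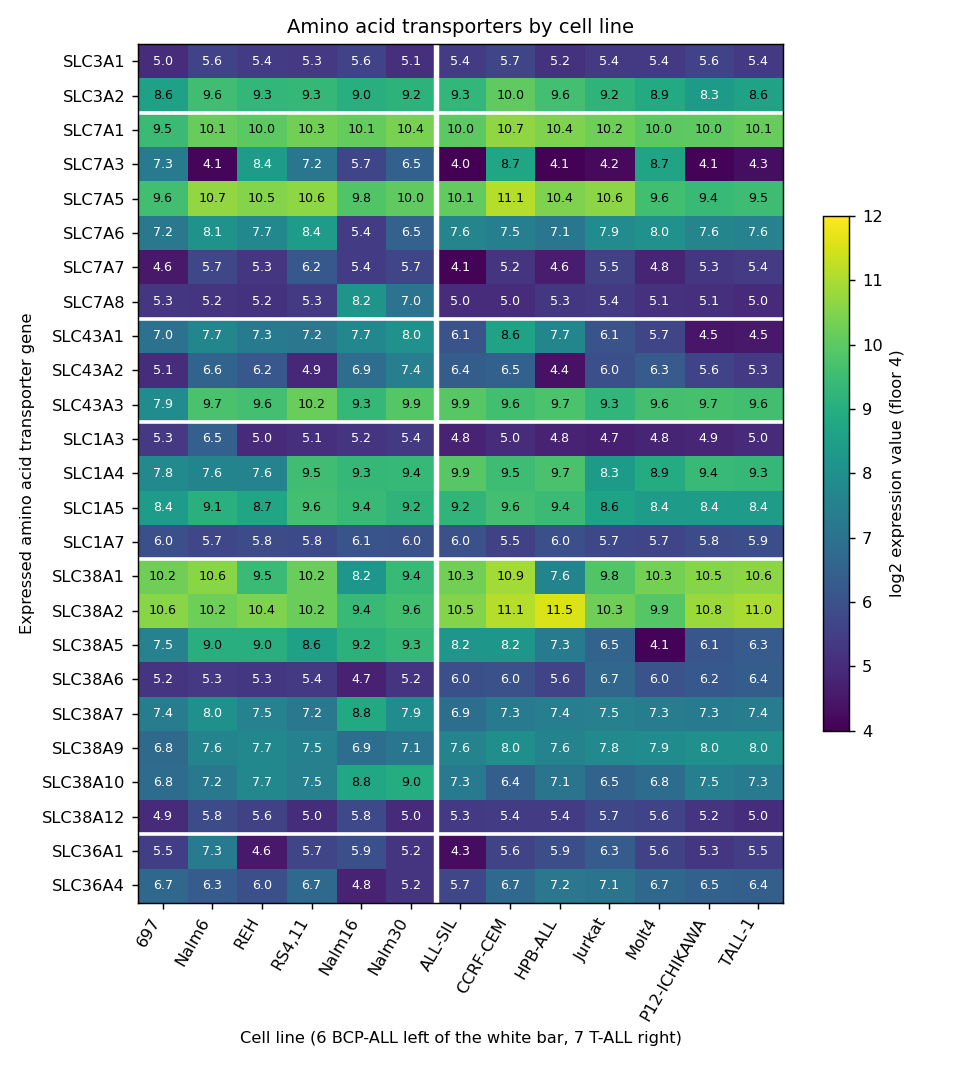
Log2 expression value of each of the 25 expressed amino acid transporters (rows, grouped by family) in each of the 13 lines (columns), with the color and the printed number giving the value. Values are to be read along a row, since probe sets of different genes are not on 1 scale, and SLC7A3 runs from 4.0 in ALL-SIL to 8.72 in CCRF-CEM while SLC1A7 stays between 5.54 and 6.07.

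Expression of the heavy chain SLC3A2 and its light chain SLC7A5 varied together over the lines. The lowest, median and highest value of SLC3A2 were 8.58, 9.24 and 9.56 in BCP-ALL, while T-ALL lines gave 8.35, 9.19 and 10.04. For SLC7A5 these were 9.59, 10.29 and 10.70 in BCP-ALL, and 9.41, 10.09 and 11.11 in T-ALL. In both genes CCRF-CEM was the highest line and P12-ICHIKAWA the lowest, and 697, TALL-1 and Molt4 were the next lowest, and the lineages overlapped.

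Pearson's r between SLC3A2 and SLC7A5 was 0.92 over 13 lines, with a Spearman rho of 0.91. SLC3A2 was the gene most like SLC7A5 of all 12559 other expressed genes, and SLC7A5 was second for SLC3A2, after MED8 (r = 0.92), a subunit of the Mediator complex. The correlation was 0.86 without CCRF-CEM and P12-ICHIKAWA, the lines farthest from the median of SLC3A2, and 0.92 after the mean of each lineage had been removed. Leaving out 1 line at a time gave 0.88 to 0.94. These are descriptions without a test, and both genes were read from the same arrays.

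The other light chains did not share this pattern. Their r with SLC3A2 was 0.08 for SLC7A6 and 0.08 for SLC7A7, which exchange cationic for neutral amino acids, and -0.03 for SLC7A8 (LAT2), a second carrier of neutral amino acids. SLC3A1, the heavy chain of kidney and gut, stayed between 5.02 and 5.67 in all lines. SLC7A6 ranged from 5.43 in Nalm16 to 8.39 in RS4,11, and SLC7A7 from 4.07 in ALL-SIL to 6.21 in RS4,11.

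Beside SLC7A5, 3 members had an r above 0.5 with SLC3A2, which 5.49% of all expressed genes reached. They were SLC1A5 (ASCT2), a sodium-dependent exchanger of glutamine and other neutral amino acids, at 0.79, SLC43A1 (LAT3), which lets large neutral amino acids pass without exchange, at 0.77, and SLC7A1 (CAT1), the common carrier of arginine and lysine, at 0.70. Without CCRF-CEM the values were 0.74, 0.70 and 0.57, and SLC38A5, at 0.49 over all lines, also exceeded 0.5 (0.52), against 6.87% of all genes. With P12-ICHIKAWA and TALL-1 as 1 line they were 0.76, 0.71 and 0.75.

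The lowest, median and highest value of SLC1A5 were 8.39, 9.14 and 9.61 in BCP-ALL, while T-ALL lines gave 8.38, 8.64 and 9.62. P12-ICHIKAWA, 697, Molt4, TALL-1, Jurkat and REH were the lower lines, at 8.38 to 8.71, and the others of both lineages read 9.08 or more. For SLC7A1 the values were 9.46, 10.13 and 10.39 in BCP-ALL and 9.97, 10.13 and 10.69 in T-ALL. This was the expressed SLC7A gene with the smallest spread (SD 0.30 over 13 lines), and 697 was the lowest line. Its 3 other probe sets followed the chosen one at an r of only 0.41 to 0.57.

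**Figure D2:**
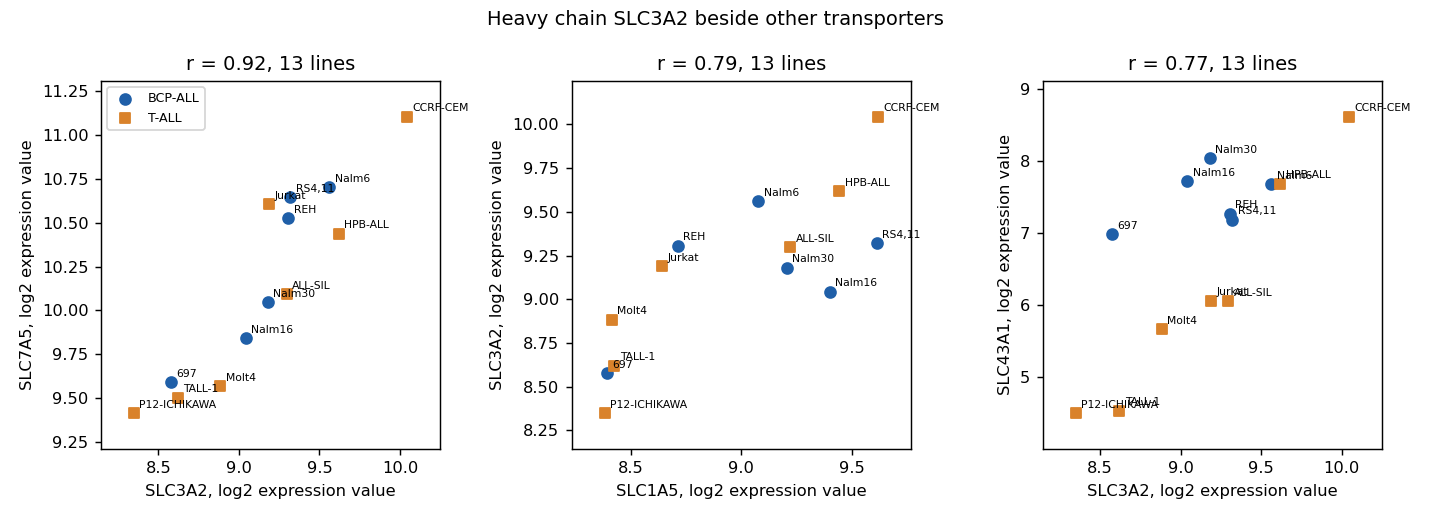
Log2 expression values of SLC3A2 against SLC7A5 (left), SLC1A5 (middle) and SLC43A1 (right), with 1 point per line, circles for the 6 BCP-ALL lines and squares for the 7 T-ALL lines. P12-ICHIKAWA lies at the bottom and CCRF-CEM at the top of each panel, with r of 0.92, 0.79 and 0.77.

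Among 17 expressed genes of the amino acid response, 6 had an r above 0.5 with SLC3A2, against 5.49% of all expressed genes. They were CEBPB (0.75), a partner of ATF4, its target CHAC1 (0.71), TRIB3 (0.65), DDIT3 (0.54), ATF3 (0.53) and ATF4 itself (0.50). CCRF-CEM was the highest line for 8 of the 17, and without it 4 were left above 0.5, CEBPB (0.63), CHAC1 (0.58), TRIB3 (0.57) and DDIT3 (0.53), against 6.87% of all genes. ASNS (asparagine synthetase), which ATF4 also induces, had an r of 0.15 with SLC3A2, and the serine synthesis genes PSAT1 and PHGDH of -0.12 and -0.07. DDIT4 had the lowest r of the 17, at -0.30. Without CCRF-CEM the values were -0.13 for ASNS, -0.38 for PSAT1, -0.39 for PHGDH and -0.55 for DDIT4. Over all lines 13 of the 17 were positive, with a median r of 0.16. MYC had an r of 0.60 with SLC3A2 over all lines.

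To set the promoters of these genes beside their expression, RefSeq promoter windows (GRCh38.p14, 250 bases before to 50 after each annotated start) were searched on both strands for TGATGNAA, the core that ATF4 binds with a C/EBP partner, and for CACGTG, the E-box. At least 1 window was found for 29 of the 37 members. TGATGNAA was held by 6 of these 29, against 4.46% of all genes with a window, and CACGTG by 9 of 29, against 8.77%. Genes can have several windows. Per window, TGATGNAA was held by 6 of the 51 windows of members, against 3.62% of all windows, and CACGTG by 9 of 51, against 7.26%. The members with TGATGNAA were SLC3A2, SLC7A1, SLC1A3, SLC1A4, SLC1A5 and SLC38A1, and those with CACGTG were SLC7A5, SLC7A7, SLC7A8, SLC43A1, SLC1A5, SLC1A7, SLC36A1, SLC38A5 and SLC38A7. Many members with a match had an r with SLC3A2 under 0.5. With TGATGNAA it was 0.16 for SLC1A3, 0.08 for SLC1A4 and -0.17 for SLC38A1. With CACGTG it was 0.08 for SLC7A7, -0.03 for SLC7A8, -0.40 for SLC1A7, 0.23 for SLC36A1, 0.49 for SLC38A5 and 0.02 for SLC38A7. Whether a match goes with a higher r was not tested. A match describes the letters of the reference sequence and is not a measured site, and no array value bears on binding.
The stretches below show the matches of SLC3A2 and of the 4 members with an r above 0.5 with it, SLC7A5, SLC1A5, SLC7A1 and SLC43A1. Not all of these were as alike among themselves, since r was 0.42 for SLC43A1 and SLC7A1. Each has 30 bases, printed 5′ to 3′ along the strand of the gene with the motif in capitals. The 2 motifs can share letters, but no stretch held both, and SLC1A5 carried them in windows of different starts.
SLC3A2, TGATGNAA on the opposite strand, chr11:62881719-62881748, plus strand: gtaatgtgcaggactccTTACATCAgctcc
SLC7A1, TGATGNAA, chr13:29595663-29595692, minus strand: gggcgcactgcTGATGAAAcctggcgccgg
SLC1A5, TGATGNAA, chr19:46784893-46784922, minus strand: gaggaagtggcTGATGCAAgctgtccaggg
SLC1A5, CACGTG, chr19:46787326-46787355, minus strand: ggcgggagtggtCACGTGgacaggacgggg
SLC7A5, CACGTG, chr16:87869620-87869649, minus strand: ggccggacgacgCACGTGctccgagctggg
SLC43A1, CACGTG, chr11:57515797-57515826, minus strand: cagcgggcgagtCACGTGcgcgtgaaactc
From the annotated start, the motif began 38 bases after it in SLC3A2 and 8 bases after it in SLC7A1. In the other 3 genes it began before the start, by 97 (TGATGNAA) and 50 (CACGTG) bases in SLC1A5, 130 in SLC7A5 and 112 in SLC43A1.

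To ask which transporters differ between the lineages, limma was fitted to all 12560 expressed genes, with Benjamini-Hochberg adjustment over all of them. Of the 25 members, 1 passed as higher in T-ALL, SLC38A6, and 1 as lower in T-ALL, SLC38A5. Over all genes 3.96% were called higher and 3.67% lower, so that 2 of 25 members was close to the 7.63% of all genes called in either direction. The median difference of the members was -0.09 log2 units, against 0.03 for all genes, and 14 of 25 were negative. The lineages did not overlap in 1 member, SLC38A6, against 3.69% of all genes.

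SLC38A5 (SNAT5) carries glutamine, asparagine, histidine, serine and glycine with sodium, in exchange for protons. In BCP-ALL its value was 7.54 in 697, 8.59 in RS4,11, 9.01 in Nalm6, 9.05 in REH, 9.15 in Nalm16 and 9.32 in Nalm30. In T-ALL it was 8.18 in ALL-SIL, 8.24 in CCRF-CEM, 7.33 in HPB-ALL, 6.55 in Jurkat, 6.29 in TALL-1, 6.13 in P12-ICHIKAWA and 4.07 in Molt4. Apart from 697 all BCP-ALL lines were above all T-ALL lines, and Molt4 was at the floor. The mean was 8.77 ± 0.65 (SD, n = 6) in BCP-ALL and 6.68 ± 1.44 (SD, n = 7) in T-ALL, a difference of -2.09 log2 units (SE 0.59, limma, Benjamini-Hochberg adjusted p = 0.0451). A two-sided exact permutation test over the lines gave p = 0.00583, of which the smallest this design allows is 0.000583. The call by limma was lost when any of 9 lines was left out, Nalm6, REH, RS4,11, Nalm16, Nalm30, HPB-ALL, Jurkat, P12-ICHIKAWA or TALL-1 (adjusted p up to 0.0975), and with P12-ICHIKAWA and TALL-1 as 1 line (-2.01, adjusted p = 0.0909), while the difference stayed between -2.35 and -1.66.

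SLC38A6 belongs to the same family, and its substrates are little known. Its value was 4.73 in Nalm16 and 5.20 to 5.37 in the other BCP-ALL lines, with a median of 5.26. In T-ALL it was 5.64 in HPB-ALL, 5.95 in ALL-SIL, 6.0 in CCRF-CEM, 6.03 in Molt4, 6.21 in P12-ICHIKAWA, 6.35 in TALL-1 and 6.65 in Jurkat. Every T-ALL line was above every BCP-ALL line, and the values of SLC38A6 in BCP-ALL lay close to the array medians. The mean was 5.19 ± 0.23 (SD, n = 6) in BCP-ALL and 6.12 ± 0.32 (SD, n = 7) in T-ALL, a difference of 0.93 (SE 0.18, limma, adjusted p = 0.00534, exact permutation p = 0.00117). It passed in every refit that left out 1 line, at 0.84 to 1.01.

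SLC38A6 and SLC38A9, the lysosomal arginine sensor, were among the most alike members (r = 0.78), in part through the lineage, since r was 0.49 with lineage means removed. SLC38A9 read 6.76 to 7.74 in BCP-ALL with a median of 7.32, while T-ALL lines read 7.58 to 8.02 with a median of 7.90. The lineages overlapped through Nalm6 and REH alone, and the difference of 0.56 (SE 0.18) did not pass (limma, adjusted p = 0.0803). It passed only without REH (0.66, adjusted p = 0.0416).

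**Figure D3:**
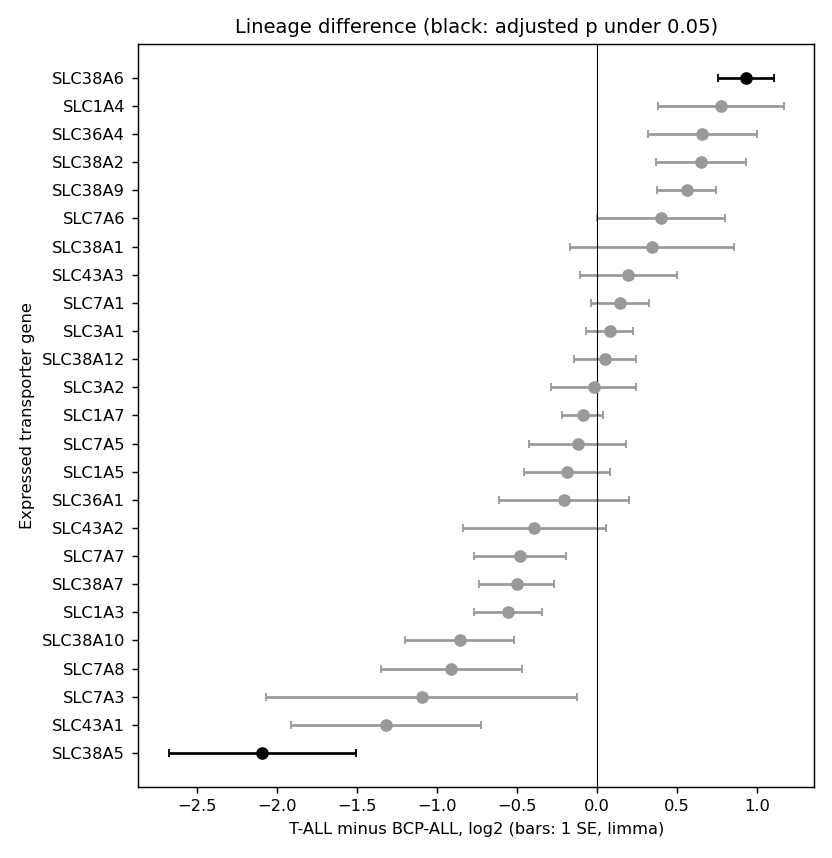
Difference in mean log2 expression between 7 T-ALL and 6 BCP-ALL lines for each of the 25 expressed transporters, with bars of 1 SE from limma and black points for an adjusted p under 0.05. SLC38A6 (0.93) is the highest and SLC38A5 (-2.09) the lowest, and SLC3A2 (-0.02) lies at zero.

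The remaining 23 members did not pass, and 13 of the 25 differed by less than 0.5 log2 units between the means. For SLC3A2 the difference was -0.02 with a 95% interval from -0.59 to 0.55, for SLC7A5 -0.12 (-0.78 to 0.53), for SLC1A5 -0.19 (-0.77 to 0.39) and for SLC7A1 0.15 (-0.24 to 0.53). These intervals leave room for differences of more than 0.5 units in at least one direction in each gene. For SLC7A1 the 3 other probe sets gave differences of 0.04 to 0.67, the highest lying above the interval of the chosen one.

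SLC38A1 (SNAT1) and SLC38A2 (SNAT2) are the widely used sodium-coupled carriers of glutamine and alanine, and SLC38A2 is known to be induced when amino acids run short. SLC38A1 was 8.19, 9.81 and 10.57 (lowest, median and highest) in BCP-ALL and 7.62, 10.34 and 10.88 in T-ALL. HPB-ALL at 7.62 and Nalm16 at 8.19 were below all others, which started at 9.39. This gap depended on the probe set. In another one (r = 0.76 with the chosen one), Nalm16 (7.70) and Nalm30 (7.82) were below HPB-ALL (7.96), and Jurkat followed at 8.11. In a weaker one (r = 0.91), HPB-ALL was lowest at 4.70 and Nalm16 next at 4.97. SLC38A2 was 9.42, 10.21 and 10.58 in BCP-ALL and 9.89, 10.80 and 11.55 in T-ALL. HPB-ALL, the lowest line for the chosen probe set of SLC38A1, was the highest for SLC38A2, and Nalm16 was low for both. The difference between lineages was 0.34 for SLC38A1 (SE 0.51, limma, adjusted p = 0.710), or -0.10 without Nalm16 and Nalm30, and 0.65 for SLC38A2 (SE 0.28, adjusted p = 0.166). Their r was 0.07 over all lines, and 0.66 without HPB-ALL and Nalm16.

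SLC7A3 (CAT3), a cationic amino acid carrier known mainly from brain, had the largest SD of all expressed members (1.93). It was 8.38 in REH, 7.33 in 697, 7.15 in RS4,11, 6.49 in Nalm30, 5.69 in Nalm16 and 4.13 in Nalm6. In T-ALL it was 8.72 in CCRF-CEM and 8.67 in Molt4, and 4.0 to 4.30 in the other lines. The gene was thus near the floor in 6 lines of both lineages, with the 2 T-ALL exceptions the highest of all, and the lineage difference of -1.10 (SE 0.97) did not pass (limma, adjusted p = 0.495). Its r with SLC7A1, the common carrier of the same amino acids, was -0.01.

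SLC43A1 was 6.98, 7.47 and 8.04 (lowest, median and highest) in BCP-ALL. In T-ALL it was 8.62 in CCRF-CEM, 7.69 in HPB-ALL, 6.06 in ALL-SIL and Jurkat, 5.66 in Molt4, 4.53 in TALL-1 and 4.50 in P12-ICHIKAWA. The BCP-ALL lines were close together (SD 0.40), whereas the T-ALL lines spread from near the floor to the highest value of all (SD 1.53). The difference of -1.32 (SE 0.59) did not pass (limma, adjusted p = 0.184), except without CCRF-CEM (-1.73, adjusted p = 0.0455). SLC43A2 (LAT4), its relative, was 4.94, 6.37 and 7.44 in BCP-ALL and 4.39, 5.97 and 6.50 in T-ALL. Nalm30 and Nalm16 were highest and HPB-ALL and RS4,11 lowest, so the lineages overlapped (difference -0.39, SE 0.45, limma, adjusted p = 0.609, and 0.10 without Nalm16 and Nalm30). The order of lines depended on the probe set. In the other one of SLC43A2 (r = 0.71), Molt4 was highest at 6.07 and 697 lowest at 4.50, with a difference of -0.07.

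SLC7A8 was 8.15 in Nalm16, 7.05 in Nalm30 and 5.17 to 5.35 in the other BCP-ALL lines. In T-ALL it was 4.97, 5.08 and 5.37 (lowest, median and highest). Nalm16 and Nalm30 alone were well above the array median. The lineage difference of -0.91 (SE 0.44) did not pass (limma, adjusted p = 0.216), and it was -0.49 without Nalm16 and -0.13 without both lines. This depended on the probe set. Another one (r = 0.89 with the chosen one) gave a difference of -1.375. There the BCP-ALL lines other than Nalm16 and Nalm30 read 5.23 to 5.72, and T-ALL lines 4.57 to 5.28. Nalm16 and Nalm30 set several correlations with the chosen probe set of SLC7A8. With SLC7A6, which was lowest in Nalm16 and Nalm30 (5.43 and 6.51), r was -0.87 over 13 lines and 0.20 without these 2. With SLC38A10, a little studied family member that was highest in them (8.79 and 8.96), r was 0.82 and -0.09.

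**Figure D4:**
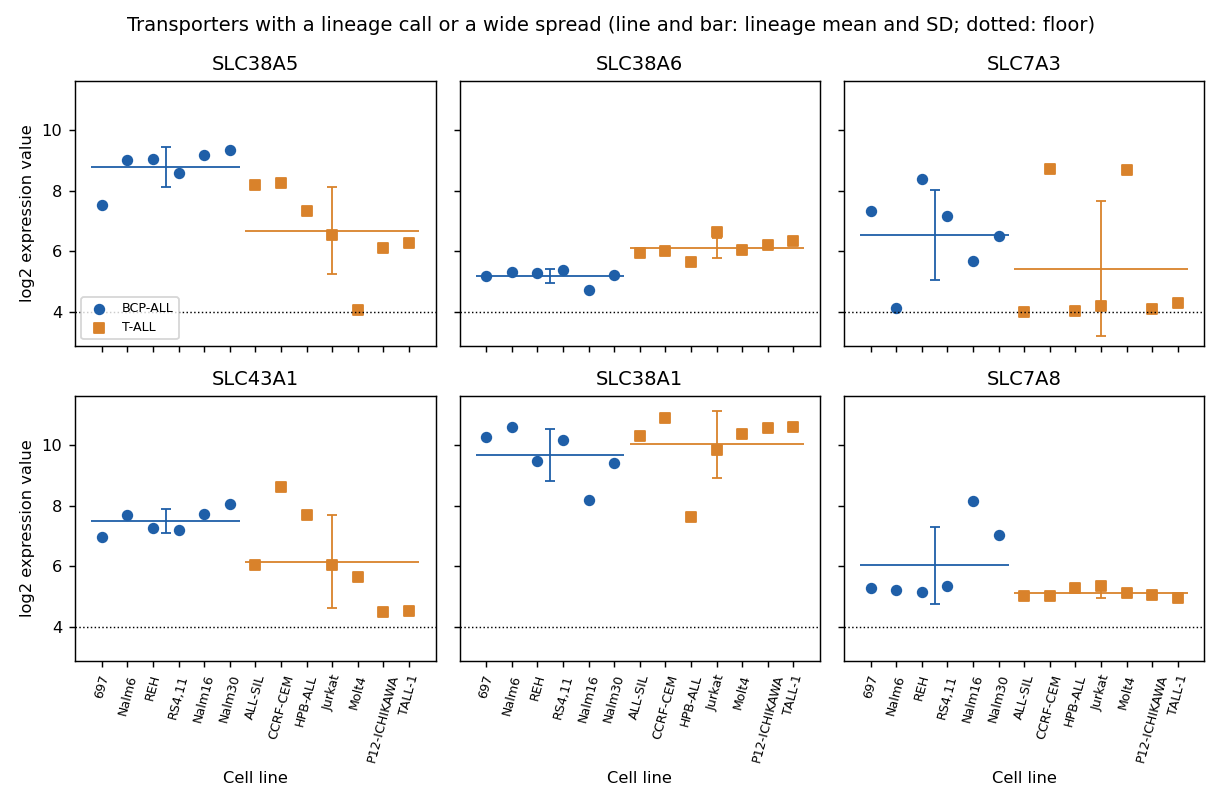
Log2 expression values of 6 transporters in each line, with circles for BCP-ALL, squares for T-ALL, horizontal lines and bars for the mean and SD of each lineage, and the floor of 4 dotted. The T-ALL lines lie above all BCP-ALL lines for SLC38A6, mostly below them for SLC38A5, and split into values near 4 and near 8.7 for SLC7A3.

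SLC1A3 (EAAT1), a glutamate and aspartate carrier, was above the array median in 4 lines, all BCP-ALL. It was 6.45 in Nalm6, 4.96 to 5.37 in the other BCP-ALL lines and 4.70 to 5.00 in T-ALL. Of the BCP-ALL lines REH alone lay within the range of T-ALL, but apart from Nalm6 all values were close to the array medians. SLC1A3 thus entered the fit through BCP-ALL lines alone, the lineage where it was higher. The difference of -0.55 (SE 0.21) did not pass by limma (adjusted p = 0.128, or 0.148 with no filter on low expression) and was -0.34 without Nalm6. The two-sided exact permutation test gave an unadjusted p of 0.00175. Because the filter kept the gene for its high BCP-ALL values, that p is no independent support for a lineage difference. SLC1A4 (ASCT1), which exchanges alanine, serine and cysteine, was 7.58 in REH, 7.59 in Nalm6 and 7.80 in 697, and 8.34 to 9.91 in all other lines (difference 0.77, SE 0.39, adjusted p = 0.231). It was singled out after its values were seen.

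Of the remaining expressed members, SLC1A7 (EAAT5) ranged from 5.54 to 6.07, SLC36A1 (PAT1), a proton-coupled carrier of small neutral amino acids on the lysosome, from 4.27 in ALL-SIL to 7.32 in Nalm6, and SLC36A4 (PAT4) from 4.77 in Nalm16 to 7.18 in HPB-ALL. SLC38A7, a lysosomal carrier of glutamine and asparagine, ranged from 6.90 in ALL-SIL to 8.85 in Nalm16, SLC38A10 from 6.44 in CCRF-CEM to 8.96 in Nalm30, and SLC38A12 from 4.94 to 5.83. SLC43A3, which carries purine nucleobases in spite of its family name, was 7.88 in 697 and 9.27 to 10.18 elsewhere. None passed between the lineages, the smallest adjusted p among them being 0.139, for SLC38A10 (limma).

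The genes around the transporters were compared in the same fit. Of the 17 amino acid response genes none passed between the lineages by limma (3 had an unadjusted p under 0.05, against 25.3% of all genes), with a median difference of 0.20. Of the 7 members known as ATF4 targets, SLC1A4, SLC1A5, SLC3A2, SLC7A1, SLC7A3, SLC7A5 and SLC38A2, none passed either, 1 had an unadjusted p under 0.05, and the median difference was -0.02. Of 33 expressed genes that link amino acids to mTORC1, 1 passed, KICS2, a subunit of the KICSTOR complex that holds GATOR1 on the lysosome. It was 0.67 higher in T-ALL (SE 0.17, adjusted p = 0.0284), and the median of the list was 0.04. Of 19 expressed carriers of other families, 1 passed, SFXN3, a mitochondrial carrier of the sideroflexin family, which was lower in T-ALL (difference -1.75, SE 0.46, adjusted p = 0.0323). The median of that list was -0.18. The shares called were again close to or below the 7.63% of all genes.

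To relate the transporters to the amino acids inside the cells, each gene was regressed on the level of each of 12 amino acids measured by NMR in separate untreated cultures of the same lines, as the mean of 3 replicates. The levels entered only as covariates, scaled to their SD over the 13 lines. Of the 25 expressed members, 19 were paired with known substrates among the 12, which gave 58 pairs of member and substrate. Among them the heavy chain SLC3A2 was paired with leucine and isoleucine, substrates of its light chain SLC7A5. By limma, with adjustment over all 12560 genes in each fit, none of the 58 pairs passed, against 0.0418% of all genes over the 12 fits (0.462% for glutamine, 0.0318% for methionine, 0.00796% for histidine and 0% for each of the others). With an unadjusted p under 0.05 there were 10 pairs, or 17.2%, against 6.09% of all genes. These 10 pairs came from 7 members and share lines and levels, so they are not separate results. The slope was negative in 8 of these 10 pairs, and in 44 of all 58. The share of negative slopes over all genes was not computed, and the 58 pairs reuse members, levels and lines. These counts therefore show no general direction of transporter against substrate. With the lineage as a covariate, 2 of the 58 pairs had an unadjusted p under 0.05.

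The smallest p was that of SLC38A5 and histidine. SLC38A5 changed by -1.15 log2 units per SD of histidine (SE 0.29, limma, adjusted p = 0.153), with Pearson r = -0.75 (permutation p = 0.0029) and Spearman rho = -0.73 (permutation p = 0.00575). Lines with more histidine thus had lower SLC38A5 values. Without Molt4, where SLC38A5 was at the floor, the slope was -0.75 (adjusted p = 0.429). Without Jurkat and Molt4, the lines farthest from the median of histidine, r was -0.57. It was -0.70 within BCP-ALL and -0.42 within T-ALL, and the slope with the lineage as a covariate was -0.77 (adjusted p = 0.999). The pair of SLC38A5 and glycine had a slope of -0.89 (SE 0.35, limma, adjusted p = 0.944), r = -0.57 (permutation p = 0.0377) and rho = -0.58 (permutation p = 0.0415), with r = -0.46 without REH and P12-ICHIKAWA. Within BCP-ALL r was -0.36, and within T-ALL -0.27.

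SLC38A1 and glutamine came second, with a slope of -0.67 (SE 0.20, limma, adjusted p = 0.336) and r = -0.69 (permutation p = 0.0329), but rho was -0.44 (permutation p = 0.136). The relation rested on HPB-ALL, which stood less apart in another probe set of SLC38A1. Without HPB-ALL and Molt4, r was -0.01, and without HPB-ALL alone the slope was -0.05. Within BCP-ALL r was 0.01, and within T-ALL, which holds HPB-ALL, -0.96. SLC38A2 and glutamine had the opposite sign (slope 0.34, SE 0.15, limma, adjusted p = 0.794), and r was 0.57 over all lines and -0.0015 without the same 2.

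For SLC1A3 the slope on glutamate was -0.32 (SE 0.10, limma, adjusted p = 0.771), with r = -0.69 (permutation p = 0.00252) and rho = -0.63 (permutation p = 0.0239). On aspartate it was -0.29 (SE 0.11, limma, adjusted p = 0.441), with r = -0.64 (permutation p = 0.0327) and rho = -0.77 (permutation p = 0.00317). Without the 2 lines farthest from the median level r was -0.73 for glutamate and -0.80 for aspartate. Within BCP-ALL r was -0.78 for each, and within T-ALL, where the gene varied little, -0.07 and -0.28. Without Nalm6, the only line with SLC1A3 well above its array median, the slopes were -0.13 and -0.14. For none of the 5 pairs with the smallest p did the difference in slope between the lineages pass by limma's interaction term (adjusted p of 0.340 or more).

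The remaining pairs with an unadjusted p under 0.05 were those of SLC7A1 with arginine (slope -0.19), SLC7A3 with arginine (0.998), and SLC43A1 with isoleucine (-0.69) and leucine (-0.68). For arginine the common carrier SLC7A1 and the variable carrier SLC7A3 thus had slopes of opposite sign. Without 697 and Molt4, the lines farthest from the median of arginine, r was 0.05 for SLC7A1 and 0.39 for SLC7A3. For SLC43A1, r was -0.53 with isoleucine and -0.52 with leucine over all lines. Without Molt4 and P12-ICHIKAWA it was -0.26 and -0.25. Within BCP-ALL r was -0.91 and -0.84, and within T-ALL -0.23 for each.

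Outside the listed substrates, and chosen after its values were seen, SLC38A5 ranked second of 12560 genes by p in the fits for isoleucine and for leucine. The slopes were -1.27 (SE 0.25, limma, adjusted p = 0.490) and -1.25 (SE 0.26, adjusted p = 0.587). Neither passed, and no gene passed for these amino acids. With lineage means removed r was -0.69 and -0.66, and without Molt4 and P12-ICHIKAWA it was -0.64 and -0.63. Doubling times of the lines were not analysed here.

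**Figure D5:**
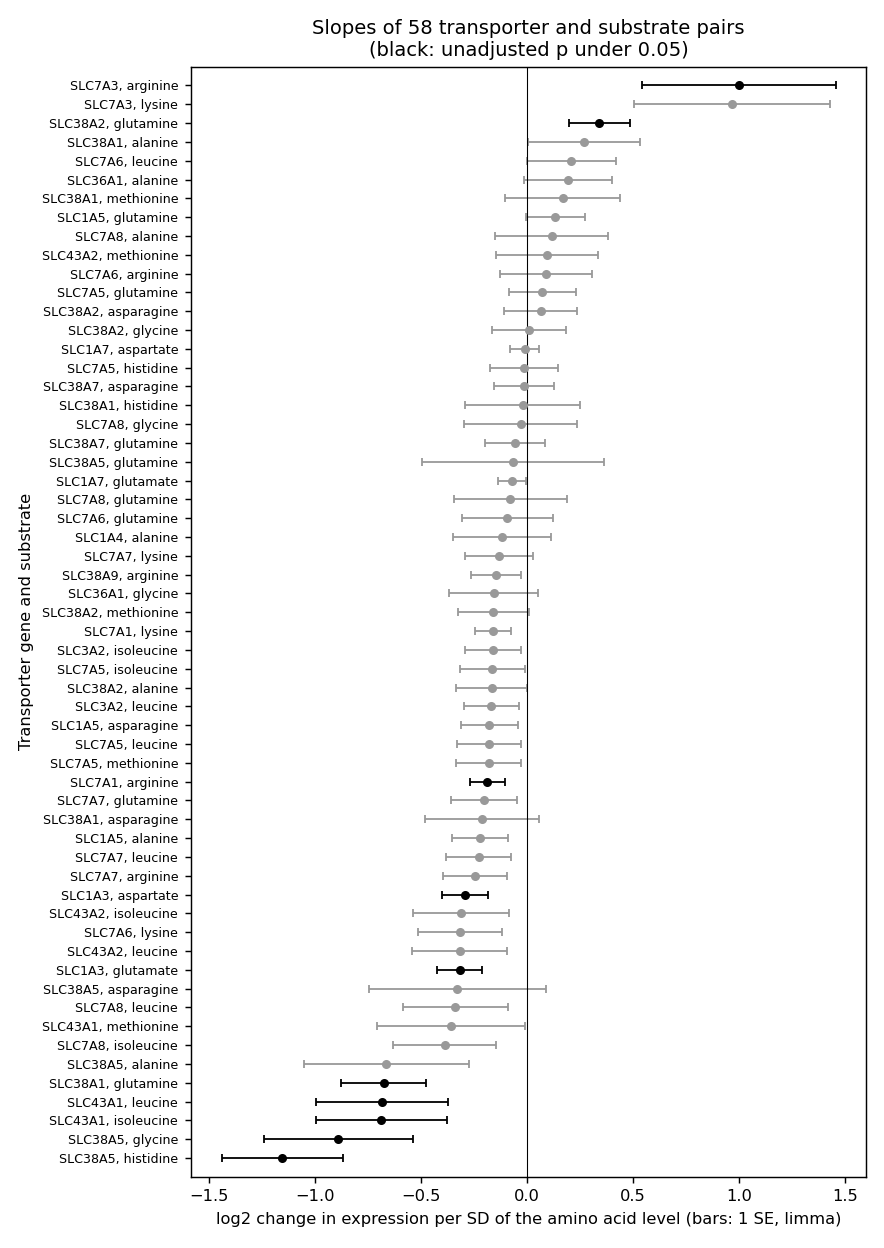
Change in log2 expression per SD of the amino acid level for each of the 58 pairs of transporter and substrate, from limma over 13 lines, with bars of 1 SE and black points for an unadjusted p under 0.05. SLC38A5 with histidine (-1.15) is the lowest and SLC7A3 with arginine (0.998) the highest slope, and no pair passed after adjustment over all genes.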

How the data were processed

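The authors deposited 1 value per probe set and array, made with the iterPLIER+16 algorithm in Affymetrix Expression Console and given on a log2 scale. The number 16 was added to each signal, which sets the floor at 4 and compresses differences of weakly expressed genes. The version and the scaling between arrays are not given in the sources used here. Precision is limited by how many lines there are.

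Of 42450 probe sets, 38119 had 1 gene symbol, 1742 had several and 2583 were not listed. Probe sets without a single symbol were left out. The platform annotation named the genes. Fits used limma 3.58.1 in R 4.3.3 (lmFit, eBayes) on 12560 genes above the array median in at least 3 lines, with Benjamini-Hochberg adjustment and a threshold of 0.05. Correlations with amino acids were tested by two-sided permutation with 100000 resamples. Amino acid levels came from the metabolite measurements of the study, of which 12 amino acids could be read.

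Named genes were the members called between lineages, the 6 with the largest SD, SLC3A2, SLC7A5, SLC1A5, SLC38A1, SLC38A2 and SLC7A1 for what they do, and the members of the 5 pairs with the smallest p. Members and lists were chosen with earlier results of these data known. Alternatives covered the filter, the normalization, the probe set, related lines, the variance model, the scale and arm of the levels, the lineage and each line left out. The lineage fit and, for asparagine alone, the slope fit were tested on simulated data. Plots used Python 3.11.15.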

Additional observations from a re-analysis of the deposited data

Results flagged for a closer look

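In 74 groups (each of 37 members in each lineage), the highest or lowest line stood apart from the others by Dixon's criterion in 6, or 8.11%. The nominal rate of the criterion is about 5%. The share over all genes is not given here, so these counts show no excess among the members. SLC38A1 was 7.62 in HPB-ALL, against 9.84 to 10.88 in the other T-ALL lines. In another probe set of SLC38A1, HPB-ALL (7.96) was close to Jurkat (8.11). SLC43A3 was 7.88 in 697, against 9.34 to 10.18 in the other BCP-ALL lines. SLC1A3 was 6.45 in Nalm6, against 4.96 to 5.37 in the other BCP-ALL lines. SLC38A6 was 4.73 in Nalm16, against 5.20 to 5.37 in the other BCP-ALL lines. SLC38A7 was 6.90 in ALL-SIL, against 7.31 to 7.48 in the other T-ALL lines. SLC1A2, which was not expressed, was 5.01 in RS4,11, against 4.59 to 4.71 in the other BCP-ALL lines.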

How the results depend on the processing

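The count of members called higher in T-ALL was 1 under each alternative except without REH, where SLC38A9 joined, so that leaving out 1 line gave 1 to 2. The count called lower was 1, and 0 with no filter on low expression, with P12-ICHIKAWA and TALL-1 as 1 line and without Nalm16 and Nalm30, and leaving out 1 line gave 0 to 2. SLC38A5 kept its sign throughout, at -1.86 (adjusted p = 0.172) without Nalm16 and Nalm30. The count of called pairs of member and substrate stayed at 0, and leaving out 1 line gave 0 to 1, the pair being SLC38A1 and glutamine without Nalm16 (adjusted p = 0.0173) and SLC38A5 and histidine without TALL-1 (adjusted p = 0.0347). Signs turned only in differences that did not pass. Without Nalm16 and Nalm30 the lineage difference was -0.10 for SLC38A1 and 0.10 for SLC43A2. For SLC3A2 it was 0.088 with P12-ICHIKAWA and TALL-1 as 1 line, and -0.17 to 0.11 leaving out 1 line. The r of SLC7A8 and SLC7A6 was 0.20 without Nalm16 and Nalm30. The cause was not tested. Alternatives for correlations between members were chosen after seeing the data. No paired analysis was possible because the lines are different cell lines whose labels carry no replicate numbers.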
